A study of Mus musculus with 4 samples.

Results

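Myeloperoxidase (Mpo), neutrophil elastase (Elane), proteinase 3 (Prtn3) and cathepsin G (Ctsg) are proteins of azurophil granules, the primary granules that promyelocytes fill first. The cells described here were all barcodes of the NPMc+, Flt3-ITD and NPMc+/Flt3-ITD libraries with at least 3 UMIs (unique molecular identifiers, one per captured transcript) summed over these 4 genes, and are called members below. They numbered 4657 of 8089 kept barcodes of the 3 mutant libraries, out of 10608 kept barcodes in all 4 libraries. The measured levels of these genes chose the members, so their height in members is a description and carries no test. Members were chosen by these UMI counts alone.

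The series profiled single long-term hematopoietic stem cells (LT-HSCs), sorted by flow cytometry from C57BL/6 mouse bone marrow at 8 to 11 weeks of age, with the 10x Genomics 3' kit version 2. Each genotype had 1 library. NPMc+ names mutant nucleophosmin that is displaced to the cytoplasm, Flt3-ITD the receptor Flt3 with an internal tandem duplication, and NPMc+/Flt3-ITD, below the double mutant, both together; the control, called Mx, is labelled MxCRE, and the series' design text names it as the reference. The labels do not say how many mice were pooled or whether the mutant mice also carried the Cre transgene. The mutant and control libraries held 2375 (NPMc+), 2393 (Flt3-ITD), 3321 (the double mutant) and 2519 (Mx) kept cells, with 20991611 to 27074489 UMIs per library; kept cells had at least 1000 UMIs and 500 genes. With 1 library per genotype, genotype and library cannot be told apart, and no test between genotypes was made. The libraries also differed in their mix of cells with Y-linked and with Xist UMIs, as given at the end. Exact 95% Clopper-Pearson intervals are given instead, and they cover counting error only.

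Granule proteases are stored as active enzymes. Cathepsin C (Ctsc) trims their propeptides, serglycin (Srgn) packs them and serpins such as Serpinb1a inhibit them. Their genes are switched on during commitment to the granulocyte and monocyte lineages under the factors C/EBP alpha (Cebpa), PU.1 (Spi1) and Myb. They are not classed as stem cell genes, although myeloid-primed stem and progenitor cells can hold low levels of such transcripts.

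Prtn3 and Elane are neighbours on mouse chromosome 10 (GENCODE M21 on GRCm38, the mm10 build that the submitters name), at 79874476 to 79883174 and 79886247 to 79888215 on the plus strand, with 3072 bases between them. Mpo lies on chromosome 11 at 87793581 to 87804413 on the plus strand and Ctsg on chromosome 14 at 56099881 to 56102574 on the minus strand. The promoters are shown because the 4 genes were selected together and yet, as described below, were read at very different levels in the same cells. Each window runs from 250 bases before to 50 after the start that RefSeq gives on GRCm38.p6, in the direction of the gene. For Prtn3 that start is 79879667, inside the longer GENCODE gene. Capitals mark 2 motifs that were chosen after the sequences had been seen, the ETS factor motif AGGAAGT (PU.1 is an ETS factor) and the Myb motif AACGG, both searched on both strands and with no overlap between them.
Prtn3 (chr10:79879417-79879716, plus): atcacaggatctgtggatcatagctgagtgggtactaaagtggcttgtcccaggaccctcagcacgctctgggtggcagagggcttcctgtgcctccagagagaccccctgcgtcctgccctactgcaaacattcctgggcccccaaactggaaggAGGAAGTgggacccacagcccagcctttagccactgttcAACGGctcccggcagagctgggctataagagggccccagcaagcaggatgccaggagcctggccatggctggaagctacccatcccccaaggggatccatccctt
Elane (chr10:79886062-79886361, plus): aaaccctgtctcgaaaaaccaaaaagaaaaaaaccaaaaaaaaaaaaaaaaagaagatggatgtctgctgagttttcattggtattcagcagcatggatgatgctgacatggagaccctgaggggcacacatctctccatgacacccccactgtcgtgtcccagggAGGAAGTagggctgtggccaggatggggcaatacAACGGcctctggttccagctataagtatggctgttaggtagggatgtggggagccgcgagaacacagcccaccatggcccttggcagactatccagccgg
Mpo (chr11:87793534-87793833, plus): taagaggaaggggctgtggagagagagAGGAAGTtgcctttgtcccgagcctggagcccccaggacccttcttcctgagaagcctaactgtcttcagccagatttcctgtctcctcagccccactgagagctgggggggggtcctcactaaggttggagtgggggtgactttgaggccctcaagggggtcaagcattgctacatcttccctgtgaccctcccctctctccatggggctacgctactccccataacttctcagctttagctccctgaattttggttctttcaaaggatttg
Ctsg (chr14:56102525-56102824, minus): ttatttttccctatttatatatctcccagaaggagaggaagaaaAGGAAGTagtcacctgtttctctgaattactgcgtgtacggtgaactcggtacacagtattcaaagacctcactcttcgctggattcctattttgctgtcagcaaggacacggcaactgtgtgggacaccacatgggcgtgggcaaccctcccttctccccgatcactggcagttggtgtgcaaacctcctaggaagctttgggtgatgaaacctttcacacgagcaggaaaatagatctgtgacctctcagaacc
All 4 windows held AGGAAGT, which was present in 9.351% of the 32851 promoters of the same length. Prtn3 and Elane also held AACGG (17.45% of promoters), so that both motifs stood in these neighbours and in 1.516% of all promoters. A match describes the letters and is not evidence of binding.

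Most members were cells that held Prtn3 transcripts, and at 3 UMIs their share in the single mutants had an interval that overlapped that of the control. Members made up 64.38% of kept NPMc+ cells (62.42 to 66.31), 65.06% of Flt3-ITD cells (63.12 to 66.98) and 47.31% of the double mutant cells (45.59 to 49.02), against 64.87% of Mx cells (62.97 to 66.73). The interval of the double mutant alone lay below that of Mx. With 5 or more UMIs the shares were 45.14% in NPMc+ (43.12 to 47.16), 43.33% in Flt3-ITD (41.34 to 45.35) and 30.89% in the double mutant (29.33 to 32.5), against 39.5% in Mx (37.58 to 41.44), so that NPMc+ lay above Mx. Members with 10 or more UMIs made up 27.67%, 21.9% and 21.51% of members in NPMc+, Flt3-ITD and the double mutant, against 13.34% in Mx. The shares at 3, 5 and 10 UMIs are raw counts, and the libraries differed in depth. Median UMIs per kept cell were 9466 in NPMc+, 8661 in Flt3-ITD, 7323 in the double mutant and 8094 in Mx. At a common depth of 3000 UMIs the shares were 27.02% in NPMc+ (25.2 to 28.91) and 25.89% in Flt3-ITD (24.05 to 27.78). The double mutant had 18.09% (16.72 to 19.51) and Mx 24.71% (22.96 to 26.52). At that depth both single mutants overlapped Mx, and the double mutant lay below it. The label of granule protease-positive cells therefore does not single out a rare granulocyte-like cell: 97.25%, 93.71% and 77.59% of NPMc+, Flt3-ITD and the double mutant members, and 99.08% of the cells that met the rule in Mx, qualified through 3 or more Prtn3 UMIs alone.

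**Figure D1:**
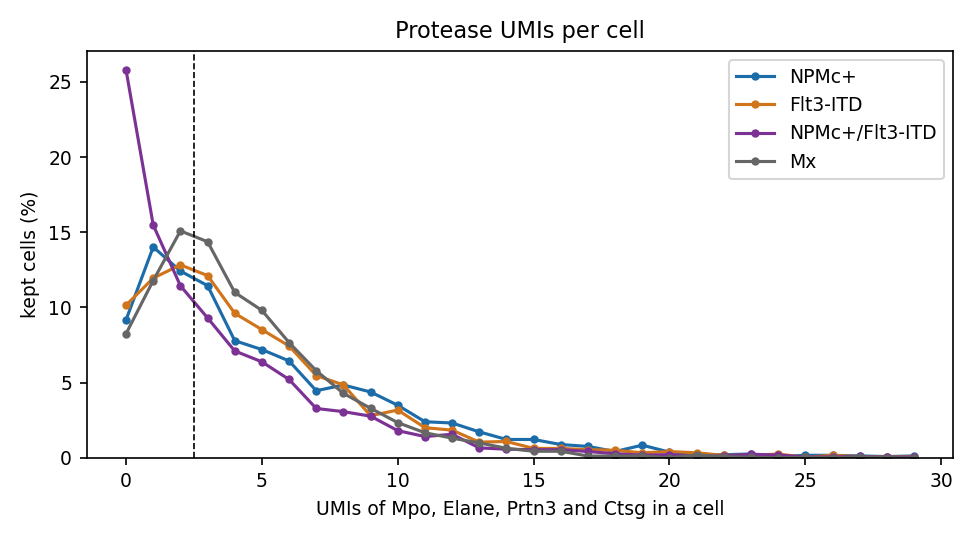
Percentage of kept cells (y axis) by the number of UMIs of Mpo, Elane, Prtn3 and Ctsg in the cell (x axis, drawn up to 29 UMIs), one line per library; the dashed line separates cells with 2 from those with 3 UMIs. The distribution is continuous across the threshold, and the double mutant has the highest share of cells at 0 (25.78%, against 8.257% in Mx).

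The count per cell showed no gap at the threshold. Cells with exactly 3 UMIs numbered 272 in NPMc+, 290 in Flt3-ITD and 309 in the double mutant, and cells just below, with 2 UMIs, numbered 295, 307 and 380. The stem cell factor Hlf read 124 CPM (UMIs of the gene scaled to a common total, here over cells thinned to 3000 UMIs) at 3 UMIs and 118 CPM at 2 UMIs in NPMc+, 125 and 116 CPM in Flt3-ITD, and 127 and 96.2 CPM in the double mutant. Some other genes shifted more. The stem cell gene Procr read 96.9 CPM at 3 UMIs and 55.4 CPM at 2 UMIs in NPMc+, 69.8 and 49.2 CPM in Flt3-ITD, and 47.8 and 46.7 CPM in the double mutant. The T cell gene Trbc1 read 55.6 and 247 CPM in the double mutant, and at most 2.58 CPM at these counts in the single mutants. The median member held 6 UMIs of the 4 genes in each mutant library, against 5 in Mx, and the median depth of members was 9897, 9453 and 9920 UMIs in NPMc+, Flt3-ITD and the double mutant.

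Members carried stem cell markers more often than the cells without any protease UMI, and the sort label held for many of them. At least 5 UMIs summed over Hlf, Procr, Mecom, Fgd5, Mllt3 and Meis1 were found in 74.36% of NPMc+ members (72.1 to 76.54) and in 24.31% of NPMc+ cells without a UMI of the 4 genes. The same shares were 52.09% and 16.87% in Flt3-ITD, and 40.36% and 7.71% in the double mutant; in Mx they were 82.99% and 43.75%. These are raw counts, and the cells without a protease UMI were shallower, with median depths of 6768, 4531 and 4502.5 UMIs in NPMc+, Flt3-ITD and the double mutant. T or NK cell markers went the other way. In the double mutant, 450 of 856 cells without a protease UMI (52.57%) held 5 or more UMIs of T or NK cell markers, against 18 of 1571 members (1.146%); the shares were 0.0654% and 1.835% in NPMc+ and 0.0642% and 3.292% in Flt3-ITD. The marker list is Cd3e, Cd3d, Cd3g, Trbc1, Trbc2, Bcl11b and Klrd1.

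Cells with markers of other lineages were set beside the stem cell marker cells, because free RNA can put UMIs into any barcode. Whether these cells express the genes themselves was not tested. Among T or NK marker cells of the double mutant thinned to 3000 UMIs (505 cells, median depth 4954), 10.1% held a Prtn3 UMI (7.612 to 13.06), against 60.91% of cells with stem cell markers (57.63 to 64.12; 898 cells, median depth 9803). Ctsg was found in 10.1% of the T or NK marker cells and in 20.16% of the stem cell marker cells (17.58 to 22.93). Mpo was found in 1.782% and 5.345%. The 3 genes were thus found more often in stem cell marker cells, and Ctsg as often as Prtn3 in T or NK marker cells. The other libraries had at most 9 T or NK marker cells at this depth. Among cells with erythroid markers a Prtn3 UMI was found in 31.82% of 44 cells of NPMc+ (18.61 to 47.58), 8.333% of 12 cells of Flt3-ITD (0.2108 to 38.48) and 25.0% of 12 cells of the double mutant (5.486 to 57.19), against 22.22% of 18 cells of Mx (6.409 to 47.64). In Mx, barcodes of fewer than 1000 UMIs held the genes in another ratio than kept cells. They read 883 CPM Elane and 970 CPM Prtn3, against 0.621 and 518 CPM in kept cells. In the double mutant such barcodes read 223 CPM Ctsg (139.7 to 337.5), against 174 CPM in kept cells. Prtn3 read 213 CPM there (131.7 to 325.2), against 300 CPM. In NPMc+ and Flt3-ITD such barcodes read 240 and 267 CPM Ctsg, against 36.3 and 42.4 CPM in kept cells. Those of Mx read 496 CPM Ctsg (314 to 744), the highest of the libraries, against 0.668 CPM in kept cells. The part of free RNA in the Ctsg counts was not tested.

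Prtn3 was slightly lower in the single mutants than in Mx, and lowest in the double mutant. Over all kept cells it read 504 CPM in NPMc+, 489 CPM in Flt3-ITD and 300 CPM in the double mutant, against 518 CPM in Mx. The ratios to Mx were 0.974 (0.949 to 0.999), 0.945 (0.920 to 0.971) and 0.580 (0.564 to 0.597). The other 3 genes separated the mutants from the control.

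Ctsg, whose product is a chymotrypsin-like protease, read 36.3 CPM in NPMc+, 42.4 CPM in Flt3-ITD and 174 CPM in the double mutant, against 0.668 CPM in Mx, where all kept cells together held 14 Ctsg UMIs. Among members, a Ctsg UMI was found in 11.12% of NPMc+ (9.586 to 12.8), 15.86% of Flt3-ITD (14.08 to 17.77) and 65.75% of the double mutant cells (63.35 to 68.1), against 0.673% of the Mx cells that met the rule (0.337 to 1.20). The double mutant stood apart from both single mutants, and the 3 mutants from Mx, beyond counting error.

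Mpo, the peroxidase of the granule, followed another order. It read 29.8 CPM in NPMc+, 79.0 CPM in Flt3-ITD and 34.4 CPM in the double mutant, against 8.98 CPM in Mx. A single cell held 55.42% of the Mpo UMIs of NPMc+, 17.4% of those of Flt3-ITD and 26.65% of those of the double mutant. A Mpo UMI was found in 10.27% of NPMc+ members (8.791 to 11.9), 29.74% of Flt3-ITD members (27.47 to 32.08) and 20.37% of the double mutant members (18.4 to 22.45), against 6.12% of the Mx cells that met the rule (5.007 to 7.394). Ctsg was thus the gene most often found beside Prtn3 in the double mutant, and Mpo in Flt3-ITD.

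**Figure D2:**
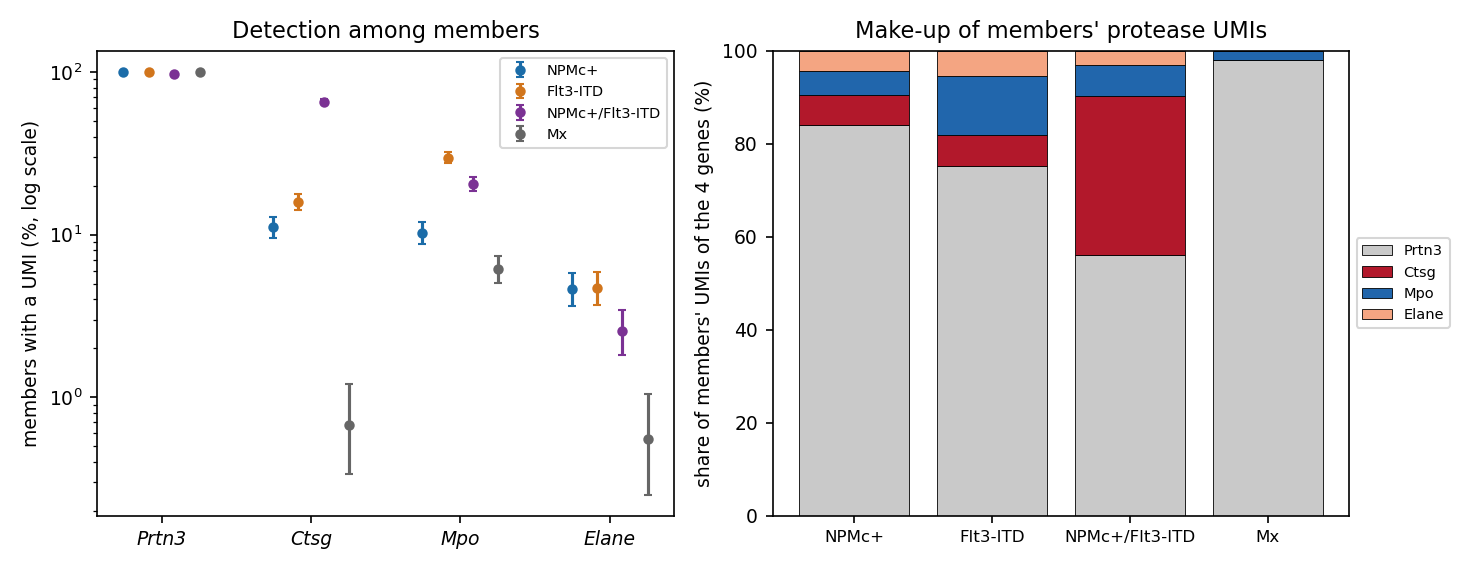
Left, percentage of members with at least 1 UMI of each gene (log axis; points are values, bars exact 95% intervals for counting error); right, share of the members' UMIs of the 4 genes held by each gene. Prtn3 is near 100% in every library, Ctsg reaches 65.75% in the double mutant against 0.673% in Mx, and Prtn3 holds 55.97% of the UMIs in the double mutant against 97.93% in Mx.

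Elane, the neighbour of Prtn3, was rare and lay in very few cells. It was found in 4.644% of NPMc+ members, 4.689% of Flt3-ITD members and 2.546% of the double mutant members, against 0.551% of the Mx cells that met the rule. A single cell held 84.53% of all Elane UMIs of NPMc+, 61.88% of those of Flt3-ITD and 87.5% of those of the double mutant. Of the members with an Elane UMI, 100% in NPMc+, 100% in Flt3-ITD and 92.5% in the double mutant also held Prtn3, whereas 1458 of 1529 NPMc+ members held Prtn3 without Elane. Since nearly all members held Prtn3, this sharing follows largely from how members were chosen.

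Across the mutant libraries 4 members had 500 or more UMIs of the 4 genes, and no cell of Mx did. The NPMc+ cell held 1551 such UMIs (4.79% of its 32383 UMIs), namely 414 Mpo, 541 Elane, 318 Prtn3 and 278 Ctsg. The Flt3-ITD cells held 1025 and 747, and the double mutant cell 832. In these 4 cells the progenitor gene Ms4a3 read 35 to 95 UMIs and Nkg7 26 to 74 UMIs, and the stem cell genes Hlf and Procr read 0. The next richest NPMc+ member held 109 UMIs of the 4 genes, with 4 Hlf UMIs. Of all members, these 4 lay farthest from the rest in protease UMIs.

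Without these 4 cells the mutants still stood above Mx for Ctsg, and much less for Elane. The ratio of Elane CPM to Mx was 6.37 in NPMc+ (3.56 to 12.4), 6.09 in Flt3-ITD (3.38 to 11.9) and 2.99 in the double mutant (1.60 to 6.00), and with them 41.1, 52.1 and 23.9. For Ctsg it was 37.8 (22.3 to 69.5), 48.3 (28.6 to 88.8) and 252 (150.2 to 462) without them. For Mpo it was 1.48 (1.24 to 1.78), 6.11 (5.24 to 7.17) and 2.81 (2.39 to 3.32).

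**Figure D3:**
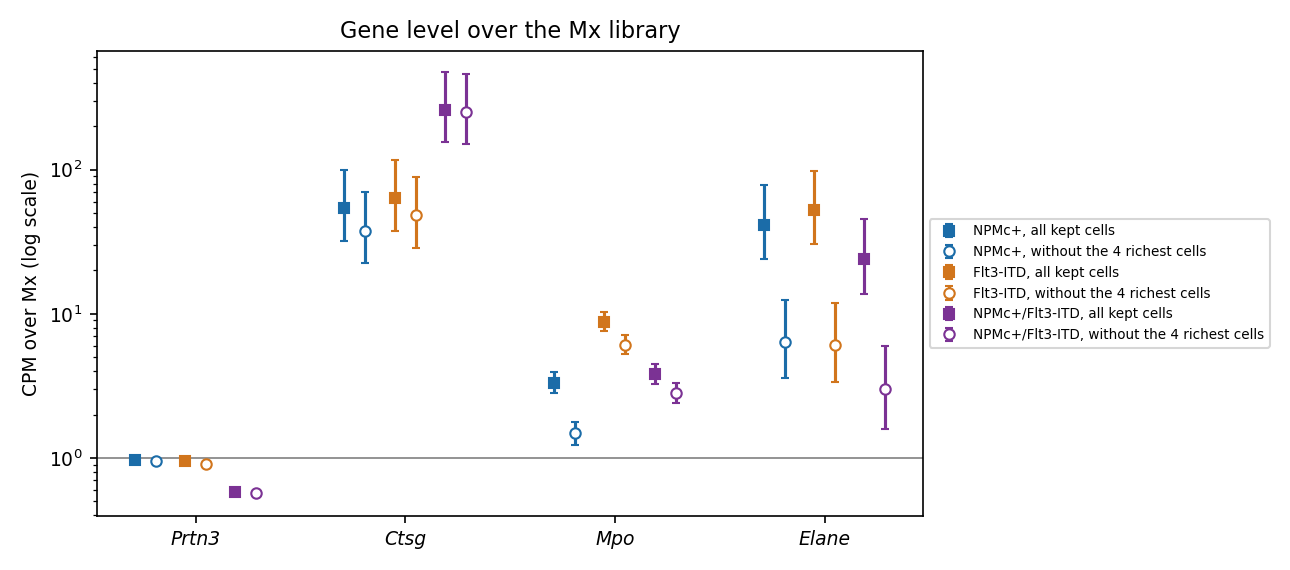
CPM of each gene in a mutant library over CPM in Mx (log axis; all kept cells, filled squares; without the 4 cells of 500 or more UMIs of these genes, open circles; bars exact 95% intervals for counting error). Ctsg stays far above 1 without the 4 cells, Elane drops to between 2.99 and 6.37, and Prtn3 lies at or below 1.

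Ctsg was found more often in members with Mpo than in members without it, in each mutant library. It was found in 33.12% of NPMc+ members with Mpo (25.82 to 41.07) and in 8.601% of those without Mpo (7.17 to 10.21). In Flt3-ITD the shares were 30.89% (26.7 to 35.31) and 9.506% (7.833 to 11.4), and in the double mutant 78.12% (73.19 to 82.53) and 62.59% (59.84 to 65.28). Deeper cells show more of any gene, and the part of depth in these shares was not tested.

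Members were then compared with cells without a UMI of the 4 genes inside each mutant library, with every cell thinned to 3000 UMIs, the UMIs summed per library and class, and edgeR's quasi-likelihood test fitted with the library as a block. The rule genes were left out. The sums held 1497 members and 182 cells without a protease UMI in NPMc+, 1533 and 147 cells in Flt3-ITD, and 1551 and 633 in the double mutant. The p-values measure the spread over 3 libraries of different genotypes, not over animals of 1 genotype. Of 8491 genes tested, 15 were higher in members (0.177%) and 35 lower (0.412%), together 0.589%, at a Benjamini-Hochberg adjusted p under 0.05, and 724 had an unadjusted p under 0.05. Leaving out cells with markers of other lineages gave 41 higher and 76 lower of 8491 genes tested. List counts given below for that setting are to be set beside these. Leaving out the double mutant gave 74 and 80, leaving out NPMc+ gave 8 and 66, and leaving out Flt3-ITD gave 2 and 20.

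A few stem and early progenitor genes were higher in members. Of 31 LT-HSC genes tested, 2 rose, 0 fell and 29 did not pass, with a median log2 fold change of 0.34, against -0.01 over all genes tested. Procr, which encodes the endothelial protein C receptor used to sort stem cells, read 130 CPM in members and 56.8 CPM in cells without a protease UMI of NPMc+, 61.8 and 34.0 CPM in Flt3-ITD, and 40.4 and 10.0 CPM in the double mutant (edgeR log2 fold change 1.37, SE 0.24, adjusted p 0.0326). Members were higher in all 3 libraries, and in Mx the cells that met the rule also read more, 122 against 70.7 CPM. The other called gene of the list, the interferon-inducible membrane gene Ifitm1, had a log2 fold change of 1.42 (SE 0.22, edgeR adjusted p 0.0207). The stem cell factor Hlf read 170 and 62.3 CPM in members and cells without a protease UMI of NPMc+, 153 and 113 CPM in Flt3-ITD, and 114 and 34.8 CPM in the double mutant, and missed the threshold (log2 fold change 1.21, SE 0.23, edgeR adjusted p 0.0538). Without cells of other lineages 5 of 31 genes of the list rose, against 41 of 8491 over all genes. They were Procr, Ifitm1, Hlf, Ly6a and Ifitm3, with smaller differences for the first 3 (log2 fold changes of 0.71, 0.87 and 0.56). Gata2, a factor of stem and mast cells, fell in that setting (log2 fold change -0.61, edgeR adjusted p 0.00113).

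Of 19 multipotent and lymphoid-primed progenitor genes tested, 3 rose and 1 fell. Flt3, the receptor of multipotent progenitors, read 19.8 and 1.83 CPM in members and cells without a protease UMI of NPMc+, 35.7 and 11.3 CPM in Flt3-ITD, and 82.6 and 30.5 CPM in the double mutant (log2 fold change 1.66, SE 0.29, edgeR adjusted p 0.0365). The NPMc+ cells without a protease UMI held 1 Flt3 UMI, and without cells of other lineages the log2 fold change was 0.92 (edgeR adjusted p 0.0434). Cd34, a sialomucin of progenitors, read 173 and 87.9 CPM in NPMc+, 366 and 247 CPM in Flt3-ITD, and 530 and 179 CPM in the double mutant (log2 fold change 1.06, SE 0.19, edgeR adjusted p 0.0398). The adhesion receptor gene Adgrl4 was higher by 1.03 on the log2 scale (SE 0.19, edgeR adjusted p 0.0412). The gene that fell was Tcf7, which encodes a T cell factor.

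The other genes named as higher in members came from no single list, and Hbb-bt is on the erythroid list. The growth factor-binding protein gene Igfbp7 rose by 2.24 (SE 0.27), the creatine synthesis enzyme gene Gatm by 2.16 (SE 0.28) and the haemoglobin gene Hbb-bt by 1.97 (SE 0.25) on the log2 scale, with edgeR adjusted p-values of 0.00327, 0.00464 and 0.00421. Igfbp7 read 283 and 54.8 CPM in members and cells without a protease UMI of the double mutant but 3.79 and 1.83 CPM in NPMc+, and had 0 UMIs in both classes of Mx. The neonatal Fc receptor gene Fcgrt rose by 1.76 (SE 0.30), the hexokinase gene Hk3 by 1.70 (SE 0.29) and the kinase gene Pim2 by 1.21 (SE 0.20), with edgeR adjusted p-values of 0.0288, 0.0324 and 0.0288. Plppr3 rose by 1.59 (SE 0.25, edgeR adjusted p 0.0207), but in GENCODE (not in RefSeq, where Prtn3 starts later) it overlaps Prtn3 by 159 bases on the opposite strand, and whether the counting used strand is not given in the sources used here, so its value is uncertain. Gatm, Hbb-bt and Plppr3 stood 4.02, 3.35 and 4.22 times as high in members of NPMc+ and 1.25, 1.02 and 1.11 times in Mx; the difference between libraries was not tested.

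No gene that works with the proteases passed the test. Of 20 other primary granule and early granulocyte genes tested, 0 passed in edgeR, 0 in DESeq2 and 6 had an unadjusted p under 0.05. Ms4a3 read 75.1 CPM in members and 89.7 CPM in cells without a protease UMI of NPMc+, 16.97 and 22.7 CPM in Flt3-ITD, and 11.6 and 5.79 CPM in the double mutant. Of 18 genes for protease activation, packing and inhibition, 0 passed in edgeR, 0 in DESeq2 and 2 had an unadjusted p under 0.05. The processing protease gene Ctsc read 52.1 and 38.5 CPM in NPMc+, 54.2 and 45.4 CPM in Flt3-ITD, and 101.1 and 77.9 CPM in the double mutant (edgeR adjusted p 0.626), and the proteoglycan gene Srgn had a log2 fold change of 0.12 (SE 0.10, edgeR adjusted p 0.827).

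Transcription factor and receptor genes of the lineage did not pass either. Of 21 granulocyte and monocyte transcription factor genes tested, 0 passed in edgeR, 0 in DESeq2 and 6 had an unadjusted p under 0.05. Spi1, the gene of PU.1, read 156 and 100.7 CPM in members and cells without a protease UMI of NPMc+, 150.4 and 118 CPM in Flt3-ITD, and 179 and 86.4 CPM in the double mutant (log2 fold change 0.71, SE 0.17, edgeR adjusted p 0.149). Cebpa had a log2 fold change of 0.34 (SE 0.26, edgeR adjusted p 0.809) and Myb of -0.24 (SE 0.18, edgeR adjusted p 0.800). Of 8 receptor genes tested, 0 passed in edgeR, 0 in DESeq2 and 2 had an unadjusted p under 0.05; the highest was the G-CSF receptor gene Csf3r, at 42.6 and 11.0 CPM in NPMc+, 36.3 and 22.7 CPM in Flt3-ITD, and 25.8 and 3.16 CPM in the double mutant (log2 fold change 1.87, SE 0.39, edgeR adjusted p 0.0848). Without cells of other lineages Csf3r passed (log2 fold change 1.46, edgeR adjusted p 0.00460).

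Some mature neutrophil genes were lower in members. Of 10 neutrophil secondary granule and S100 genes tested, 5 fell and 0 rose in edgeR, and 2 fell in DESeq2. S100a9, a calcium-binding protein of neutrophils, read 1.34 CPM in members and 3.66 CPM in cells without a protease UMI of NPMc+, 3.26 and 764 CPM in Flt3-ITD, and 2.15 and 116 CPM in the double mutant (log2 fold change -6.54, SE 0.61, edgeR adjusted p 0.000472). S100a8 read 3.57 and 3.66 CPM in NPMc+, 3.70 and 1224 CPM in Flt3-ITD, and 1.51 and 132 CPM in the double mutant (log2 fold change -6.45, SE 0.92, edgeR adjusted p 0.0114). The antimicrobial peptide gene Camp had a log2 fold change of -6.62 (SE 0.49, edgeR adjusted p 0.000122). These genes were near 0 in both classes of NPMc+. The S100a8 and S100a9 calls were lost under a stricter cell filter that left 146 of 147 Flt3-ITD cells without a protease UMI (log2 fold change -3.53, edgeR adjusted p 0.187, and -3.82, edgeR adjusted p 0.0721). They were also lost without Flt3-ITD (-4.35, edgeR adjusted p 0.261, and -4.82, edgeR adjusted p 0.0600), and S100a8 was lost in DESeq2 (adjusted p 0.0712), on UMIs that were not thinned (edgeR adjusted p 0.186) and with a level floor of 30 CPM (edgeR adjusted p 0.0533). The whole list of 22 genes summed to 415, 455 and 733 CPM in members of NPMc+, Flt3-ITD and the double mutant, against 353, 3351 and 1204 CPM in cells without a protease UMI, so that members of NPMc+ read more.

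Of 11 T and NK cell genes tested, 7 fell and 0 rose. Bcl11b, a T cell commitment factor, read 15.3 CPM in members and 447 CPM in cells without a protease UMI of the double mutant, with 1 UMI in each class of NPMc+ and of Flt3-ITD (log2 fold change -4.76, SE 0.31, edgeR adjusted p 9.43e-05). Tcf7 read 46.0 and 853 CPM in the double mutant, and the other mutant libraries held at most 5 Tcf7 UMIs in a class (log2 fold change -4.29, SE 0.32, edgeR adjusted p 0.000122). Ccl5, a chemokine of T and NK cells, was lower in members of all 3 libraries, at 12.03 and 56.8 CPM in NPMc+, 23.3 and 331 CPM in Flt3-ITD, and 38.9 and 191 CPM in the double mutant (log2 fold change -2.82, SE 0.29, edgeR adjusted p 0.000862). Among the lowest-ranked genes, Lef1, Skap1, Ms4a4b, Tcrg-C4 and Txk also fell, by 6.16, 5.18, 3.87, 3.70 and 3.02 on the log2 scale. Lef1 was tested in only 14 and Txk in 16 of the alternative settings given at the end, against 22 for Tcf7. As given above, 52.57% of the cells without a protease UMI of the double mutant carried T or NK markers. With cells of other lineages left out, 3 of 8 tested genes of this list fell, against 76 of 8491 over all genes. Summed over the 24 genes, the list read 190.6, 211 and 560.1 CPM in members of NPMc+, Flt3-ITD and the double mutant, against 383, 753 and 5462 CPM in cells without a protease UMI; the part of these cells in the result was not tested beyond leaving them out.

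Some megakaryocyte and erythroid genes were also lower in members. Of 21 megakaryocyte and platelet genes tested, 3 fell, among them Gata1 and Tuba8, and 0 rose, with a median log2 fold change of -0.61. Without cells of other lineages 6 of 18 fell, against 76 of 8491 over all genes. Gata1, the factor of both lineages, read 38.1 and 80.6 CPM in members and cells without a protease UMI of NPMc+, 23.5 and 59.0 CPM in Flt3-ITD, and 11.0 and 27.9 CPM in the double mutant (log2 fold change -1.24, SE 0.21, edgeR adjusted p 0.0288). Members were lower in each library. The platelet chemokine gene Pf4 read 218 and 802 CPM in NPMc+, 51.1 and 113 CPM in Flt3-ITD, and 30.8 and 37.4 CPM in the double mutant (log2 fold change -1.18, SE 0.26, edgeR adjusted p 0.105). The erythroid carbonic anhydrase gene Car1 fell by 2.44 (SE 0.37, edgeR adjusted p 0.0176), at 18.3 and 185 CPM in NPMc+, 3.92 and 24.9 CPM in Flt3-ITD, and 12.9 and 32.1 CPM in the double mutant; it did not pass without NPMc+ (-1.73, edgeR adjusted p 0.113) or without Flt3-ITD (-2.38, edgeR adjusted p 0.165). Of 10 erythroid genes tested, 2 fell (Car1 and Gata1) and 1 rose (Hbb-bt). Megakaryocyte markers were carried by 23.02% of members and 39.91% of cells without a protease UMI in NPMc+, by 4.56% and 7.407% in Flt3-ITD, and by 1.91% and 1.752% in the double mutant. The summed erythroid list read 1330 and 1894 CPM in NPMc+, 1537 and 1914 CPM in Flt3-ITD, and 917 and 894 CPM in the double mutant.

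**Figure D4:**
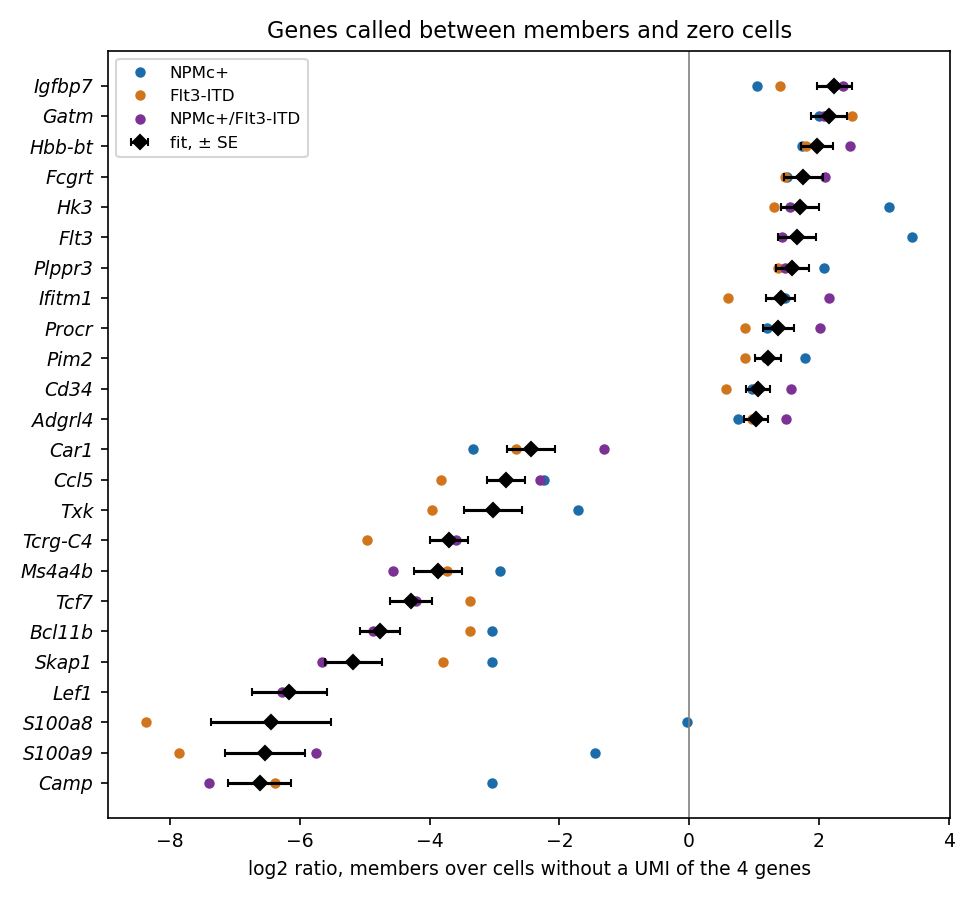
log2 ratio of members over cells without a UMI of the 4 genes (x axis) for the 12 highest and 12 lowest called genes that moved the same way in each mutant library; black diamonds give the edgeR fit with its SE, coloured points the ratio in each library (a ratio of 0 is not drawn). The higher genes lie between 1.03 and 2.24 and the lower ones between -2.44 and -6.62, with S100a8 of NPMc+ near 0.

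No cell cycle gene passed between members and cells without a protease UMI. Of 38 G1/S and S phase genes tested, 0 passed in edgeR, 0 in DESeq2 and 0 had an unadjusted p under 0.05, and of 42 G2/M genes 0, 0 and 3 did. Summed G1/S UMIs read 1955 CPM in members and 2465 CPM in cells without a protease UMI of NPMc+, 2727 and 2902 CPM in Flt3-ITD, and 3502 and 2001 CPM in the double mutant. The double mutant thus ran opposite to the single mutants, a difference that was not tested. Among the remaining lists, 0 of 11 monocyte and dendritic cell genes passed in edgeR (5 at an unadjusted p under 0.05, 0 in DESeq2), 0 of 35 interferon-stimulated genes (6 and 0), 0 of 34 endoplasmic reticulum folding genes (1 and 0) and 0 of 42 ribosome biogenesis genes (0 and 0). Other lists did hold called genes. In edgeR 1 of 29 quiescence-associated, 1 of 26 immediate-early and 1 of 9 Hox and cofactor genes fell. Of 24 STAT5 and cytokine feedback genes 1 rose and 0 fell. Without cells of other lineages 1 of 29, 6 of 27 and 1 of 9 genes of the first 3 lists fell, against 76 of 8491 over all genes. In the STAT5 list 0 of 22 then rose and 1 fell. Of 5 mast cell and basophil genes 0 passed in edgeR, 5 had an unadjusted p under 0.05 and 1 was lower in DESeq2. Without cells of other lineages 1 of 6 mast cell and basophil genes rose and 3 fell in edgeR, 1 of 20 other primary granule genes rose (Gstm1) and 1 fell (Ap3s1), 1 of 21 transcription factor genes fell (Zeb2) and 1 of 11 monocyte and dendritic cell genes rose (Ccl9). Of 6 B cell and plasma cell genes 0 passed in edgeR, 2 had an unadjusted p under 0.05 and 1 was lower in DESeq2, and 3 fell without cells of other lineages. The whole B cell list summed to 875 and 544 CPM in members and cells without a protease UMI of NPMc+, 265 and 1057 CPM in Flt3-ITD, and 653 and 902 CPM in the double mutant.

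Members differed among themselves along the genes other than Prtn3. Members with 3 or more UMIs of Mpo, Elane and Ctsg numbered 66 in NPMc+ (4.317% of members), 176 in Flt3-ITD (11.3%) and 533 in the double mutant (33.93%), against 25 of the Mx cells that met the rule (1.53%). They are called Mpo/Elane/Ctsg-positive members below, and members with no UMI of these 3 genes are called Prtn3-only members. The split was chosen after the data had been seen and uses measured values, so the following are descriptions with no test. The 4 richest cells were left out, which leaves 63, 171 and 527 Mpo/Elane/Ctsg-positive and 1178, 936 and 448 Prtn3-only members at 3000 UMIs per cell in NPMc+, Flt3-ITD and the double mutant. Of 6136 genes at 20 CPM or more, 24 were at least 2-fold higher in Mpo/Elane/Ctsg-positive members in all 3 mutant libraries (0.391%) and 20 at least 2-fold lower (0.326%).

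Cebpa and Ccl9 stood higher in Mpo/Elane/Ctsg-positive members. Cebpa, the factor that starts granulocyte commitment, read 127 CPM in Mpo/Elane/Ctsg-positive and 9.91 CPM in Prtn3-only members of NPMc+ (ratio 12.8, 7.30 to 22.2), 68.3 and 13.9 CPM in Flt3-ITD (4.92, 3.02 to 7.96), and 51.9 and 19.4 CPM in the double mutant (2.68, 1.71 to 4.35). The chemokine gene Ccl9 read 583 and 35.1 CPM in NPMc+, 115 and 14.6 CPM in Flt3-ITD, and 105 and 30.5 CPM in the double mutant. The ratio of Ccl9 was 16.6, 7.88 and 3.44. For both genes it was above 1 beyond counting error in each library and smallest in the double mutant.

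Of 19 granulocyte and monocyte transcription factor genes above the level floor, 1 (Cebpa) stood 1.5-fold or more higher in all 3 libraries and 1 (Klf4) lower, with median log2 ratios of -0.16, -0.03 and -0.22 in NPMc+, Flt3-ITD and the double mutant. Of 9 monocyte and dendritic cell genes 1 stood higher and 2 lower, of 8 receptor genes 1 and 0 (median log2 ratios of 0.90, 0.67 and -0.19), and of 15 protease activation and packing genes 0 and 0. Single genes that stood higher, named after their values were seen, were the cystatin gene Cst7, a protease inhibitor (4.07, 4.30 and 2.39-fold in NPMc+, Flt3-ITD and the double mutant), the mast cell carboxypeptidase gene Cpa3 (3.27, 2.25 and 2.55-fold) and the myeloid lectin receptor gene Clec12a (33.7, 3.13 and 3.40-fold, the Flt3-ITD interval running from 0.672 to 12.3). Irf8, a factor of monocyte and dendritic cell fate that lay under the level floor, read 5.62, 3.19 and 2.71-fold. The basophil protease gene Mcpt8 held 15 UMIs in Mpo/Elane/Ctsg-positive and 0 in Prtn3-only members of NPMc+, 21 and 1 UMIs in Flt3-ITD, and 125 and 14 UMIs in the double mutant. Mcpt8 lies 14607 bases from Ctsg, at 56082166 to 56085273 on the same strand of chromosome 14. Of 18 other primary granule genes above the level floor, 2 (Cst7 and Clec12a) stood 1.5-fold or more higher in all 3 libraries, against 1.25% of all genes, and 0 lower; Ms4a3 read 3.74, 2.46 and 1.15-fold. Cd48, absent from the surface of most long-term stem cells, read 440 and 99.1 CPM in NPMc+, 476 and 147 CPM in Flt3-ITD, and 985 and 671 CPM in the double mutant.

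Cell cycle genes stood higher in the same cells. Of 33 G1/S and S phase genes above the floor, 17 stood 1.5-fold or more higher in Mpo/Elane/Ctsg-positive members of all 3 libraries and 0 lower, and of 27 G2/M genes 11 and 0, against 1.25% of all genes higher and 1.76% lower. The median log2 ratio of the G1/S list was 0.77, 0.86 and 0.92 in NPMc+, Flt3-ITD and the double mutant, against -0.01, -0.01 and -0.04 over all genes. Rrm2, a subunit of ribonucleotide reductase, read 84.8 and 22.1 CPM in Mpo/Elane/Ctsg-positive and Prtn3-only members of NPMc+ (ratio 3.84, 2.09 to 6.63), 91.7 and 31.4 CPM in Flt3-ITD (2.93, 2.01 to 4.21), and 95.6 and 15.6 CPM in the double mutant (6.12, 3.86 to 10.2). The replication licensing gene Mcm5 stood 2.33, 2.47 and 2.18-fold higher, and the PCNA-binding factor gene Pclaf 2.34, 3.58 and 6.69-fold. Median depths of the 2 kinds of members before thinning were 11142 and 9712 UMIs in NPMc+, 12286 and 8863 UMIs in Flt3-ITD, and 11875.5 and 8407 UMIs in the double mutant; the part of depth, which can itself follow the cell cycle, was not tested.

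Stem cell genes stood lower in Mpo/Elane/Ctsg-positive members. By the rule Prtn3-only members hold 3 or more Prtn3 UMIs, which the Mpo/Elane/Ctsg-positive members need not. As given above, members, nearly all with Prtn3, carried stem cell markers more often than cells without a protease UMI. The part of this selection in the difference was not tested. Of 26 LT-HSC genes above the floor, 14 stood 1.5-fold or more lower in all 3 libraries and 0 higher. Procr read 21.2 and 145 CPM in Mpo/Elane/Ctsg-positive and Prtn3-only members of NPMc+ (ratio 0.147, 0.0398 to 0.377), 9.76 and 78.8 CPM in Flt3-ITD (0.124, 0.0398 to 0.294), and 22.2 and 55.8 CPM in the double mutant (0.397, 0.258 to 0.600). Hlf read 95.4 and 182 CPM in NPMc+, 103 and 172 CPM in Flt3-ITD, and 65.9 and 171 CPM in the double mutant. Mllt3, a stem cell maintenance factor, had ratios of 0.201, 0.193 and 0.340. Of 24 quiescence-associated genes 6 were lower by 1.5-fold in all 3 libraries and 0 higher, among them Txnip and the p57 inhibitor gene Cdkn1c. In Mx, where the Mpo/Elane/Ctsg-positive cells numbered 24, Procr had a ratio of 0.886 (0.381 to 1.76), Hlf of 0.576 (0.306 to 0.989) and Cpa3 of 26.1 (13.6 to 48.0).

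**Figure D5:**
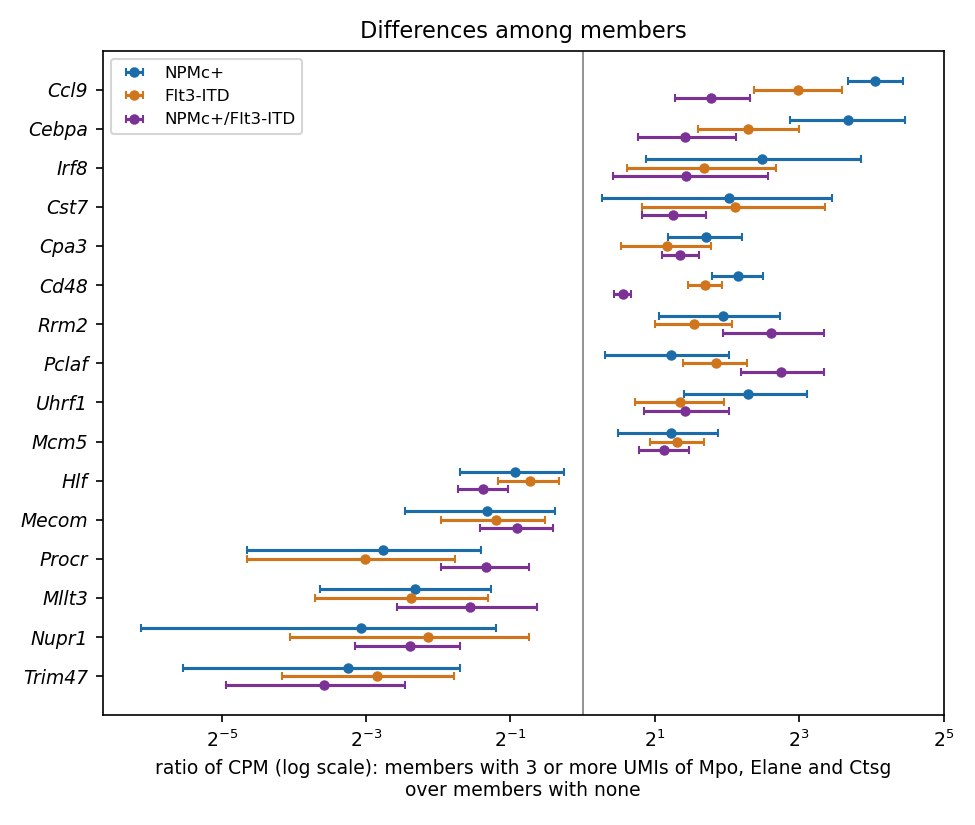
Ratio of CPM in Mpo/Elane/Ctsg-positive members (3 or more UMIs of Mpo, Elane and Ctsg) over Prtn3-only members (x axis, log scale) for selected genes in each mutant library; points are ratios and bars exact 95% intervals for counting error. Genes from Ccl9 to Mcm5 lie above 1 and stem cell genes from Hlf to Trim47 below 1 in each library.

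The kind of second protease gene differed between libraries. Among members with 3 or more Mpo UMIs and no Ctsg or Elane there were 6 cells in NPMc+, 35 in Flt3-ITD and 3 in the double mutant, against 19 in Mx, and among those with 3 or more Ctsg UMIs and no Mpo or Elane 17, 12 and 308, against 0 in Mx. The Ctsg cells of the double mutant read 228 CPM of the lymphoid polymerase gene Dntt, 104 CPM of Tcf7 and 124 CPM of the T cell receptor gamma gene Tcrg-C2, against 105, 20.1 and 16.4 CPM in Prtn3-only members of the same library. The Ctsg cells of NPMc+ read 0 UMIs of all 3 genes, 746 CPM Ccl9 and 98.2 CPM Cebpa. The Mpo cells of Flt3-ITD read 801 CPM Cd34 and 76.3 CPM Cebpa, against 312.5 and 13.9 CPM in the Prtn3-only members of that library. Prtn3 itself read 345 CPM in the Ctsg cells of the double mutant and 1277 CPM in those of NPMc+. The single-gene groups hold few cells outside the double mutant, and no test was made.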

How the data were processed

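Sorted LT-HSCs of 4 genotypes, 1 library each, had been profiled with the 10x 3' kit version 2. Per the submitters' processing notes the reads were handled with STARsolo and STAR 2.7.0c on mm10; filters are not given in the sources used here. The deposited tables hold raw UMI counts per gene and barcode, 11407 barcodes and 95244127 UMIs over 26687 gene symbols. Barcodes were kept from 1000 UMIs and 500 genes upward, with mitochondrial UMIs no higher than 10.0%. Total UMIs per library ranged from 20991611 to 27074489.

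The members, gene lists and tests were chosen with earlier results of these data known. Members had at least 3 UMIs of Mpo, Elane, Prtn3 and Ctsg; they were compared with cells with 0. Cells were thinned to 3000 UMIs without replacement (32, 24 and 20 members and 36, 96 and 223 cells without a protease UMI in NPMc+, Flt3-ITD and the double mutant were shallower and left out). Counts were summed per library and class and tested with edgeR 4.0.16 (quasi-likelihood, TMM scaling, library as block, mean of at least 10 CPM, Benjamini-Hochberg adjustment); DESeq2 1.42.0 was an alternative, in R 4.3.3. The code of the fit was also run on simulated counts. Those gave all libraries the same gene means, unlike these libraries, so that run says nothing about the results here. Both classes of a pair come from the same library, which is where the pairing comes from. Fold intervals are exact 95% binomial intervals. UMIs come from single molecules, but intervals and shares cover counting error only.

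Named genes were the 12 highest and 12 lowest called genes with the same direction in each mutant library, the 3 smallest p-values of each list, and a fixed set; not all are printed. The ranking left out clone names, mitochondrial genes, antigen receptor segments, Xist and Y-linked genes. Genes named in the comparison among members were chosen after their values were seen. A planned comparison of members with Elane, Prtn3 or Ctsg against members with Mpo alone could not be run, since no member lacked all of those 3 genes. No doublet caller was run; cells of the top 5% by UMIs and cells with both Xist and Y-linked UMIs were left out as alternatives. Barcodes shared by 2 libraries numbered 160 over all pairs, and 33, 22 and 21 members of NPMc+, Flt3-ITD and the double mutant and 18 of the Mx cells that met the rule carried one. Promoters are from RefSeq (GRCm38.p6; all 4 genes matched) and gene positions from GENCODE M21. Results of 2 genes are not reported here.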

Additional observations from a re-analysis of the deposited data

Results flagged for a closer look

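Mki67, which encodes a nuclear protein of cycling cells, differed in direction between libraries. In the double mutant it stood 2.10-fold higher in members than in cells without a protease UMI (1.29 to 3.59), while the ratio was 0.435 in NPMc+ (0.265 to 0.743) and 0.350 in Flt3-ITD (0.219 to 0.583). In Mx the ratio was 0.349 (0.207 to 0.620). The difference between libraries was not tested, and the counts were 103 and 20 UMIs in the 2 classes of the double mutant.

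Igkc, an immunoglobulin light chain gene, also ran opposite ways. The ratio of members over cells without a protease UMI was 2.53 in NPMc+ (2.07 to 3.13), from 2039 and 98 UMIs, and 0.0189 in Flt3-ITD (0.0134 to 0.0260), from 46 and 234 UMIs. Of the 2039 UMIs in the 1497 NPMc+ members, 678 lay in the 1178 Prtn3-only members (192 CPM). The rest lay in the fewer members with a UMI of Mpo, Elane or Ctsg, so the ratio of NPMc+ does not describe most of its members. The difference between these libraries was not tested.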

How the results depend on the processing

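The main counts were 15 genes higher and 35 lower in members. No level floor gave 157 and 254, a floor of 30 CPM 2 (Hbb-bt and Igfbp7) and 17, cells with 5000 to 15000 UMIs 34 and 67, cells of other lineages left out 41 and 76, members with no UMI of Mpo, Elane or Ctsg 34 and 59, and cells with a Y-linked and no Xist UMI 23 and 55; the last 2 settings were chosen after seeing the data. Thinning to 2000 UMIs and another seed for thinning each gave 7 higher. Leaving out 1 mutant library at a time gave 2 to 74 higher and 20 to 80 lower; the 2 higher genes without Flt3-ITD were Ifitm1 and Igfbp7. Without the library as a replicate block, the pairing was lost and 0 genes were higher and 1 (Trbc2) lower, with 313 at an unadjusted p under 0.05. The cause of these shifts was not tested. Another seed kept 6 of the 15 higher genes and 25 of the 35 lower ones, so single calls near the threshold rest on the draw. Calling the classes after thinning, at equal depth, kept 5 of the 15 and 23 of the 35. Igfbp7, Hk3, Ifitm1, Cd34 and Adgrl4 then passed. Gatm, Hbb-bt, Flt3 and Procr did not, with log2 fold changes of 0.60, 0.90, 0.83 and 1.07 (edgeR adjusted p 0.630, 0.184, 0.188 and 0.0899). Nor did Fcgrt, Plppr3 and Pim2.

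Over the 24 ranked genes and these alternatives, 409 of 517 values kept their direction and passed, 108 kept their direction and did not pass, and 0 turned round. Flt3, Fcgrt and Adgrl4 passed in 12 settings each, Tcf7 and Bcl11b in 21 of 22. Settings in which a gene was not tested are not counted. Without the double mutant Tcf7 and Bcl11b lay under the level floor and were not tested, so their passes rest on that library.

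The share of members fell with a threshold of 5 UMIs to 45.14% in NPMc+, 43.33% in Flt3-ITD and 30.89% in the double mutant, against 39.5% in Mx, and with thinned counts to 27.02%, 25.89% and 18.09%, against 24.71%. The stricter cell filter gave 68.32% in Flt3-ITD and 49.56% in the double mutant, against 66.78% in Mx, and leaving out the top 5% of cells by UMIs gave 45.01% in the double mutant. The alternatives planned for members with Mpo alone were not run, since there were none.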

Other observations

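Xist, the RNA of the inactive X chromosome, was higher in members of each mutant library and lower in Mx. It read 341 and 176 CPM in members and cells without a protease UMI of NPMc+, 549 and 361 CPM in Flt3-ITD, and 62.8 and 34.8 CPM in the double mutant (log2 fold change 0.80, SE 0.14, edgeR adjusted p 0.0409), against 346 and 407 CPM in Mx. Members with Xist and no Y-linked UMI made up 21.26% in NPMc+, 36.61% in Flt3-ITD, 5.792% in the double mutant and 23.32% in Mx. Those with a Y-linked and no Xist UMI made up 51.28%, 39.24%, 76.83% and 51.22%. Each library thus held cells of both kinds, in unlike shares. The part of sex in these results was not tested.

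Tmsb4x, which encodes the actin-binding peptide thymosin beta 4, was lower in members of each library, at 2975 and 4595 CPM in NPMc+, 2290.2 and 3213 CPM in Flt3-ITD, and 2690.2 and 3971 CPM in the double mutant (log2 fold change -0.56, SE 0.09, edgeR adjusted p 0.0207). In Mx the cells that met the rule read 1889 CPM and those without a protease UMI 2639 CPM. The gene was chosen after its values were seen.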
